A study of Mus musculus with 17 samples.

Results

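Slc6a12, Slc5a3, Slc6a4, Slc18a1 and Slco5a1 are 5 of the 41033 genes counted in the mouse macrophage cultures described here. They encode membrane transporters, and they were selected on these same counts, in which their mRNA was low in bone marrow macrophages (BMMs), rose with RANKL, and was higher in most RANKL-treated cultures labelled Bap1LysM than in controls. Their RANKL response and their genotype difference after RANKL are therefore given as descriptions, and where edgeR calls of these values are given, nothing is read from them. The genotype difference before RANKL was tested. That test is not independent of the choice, since the low level in BMMs was part of it, the RANKL response uses the same BMM libraries, and earlier results of these data were known.

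Osteoclasts are the multinucleated cells that resorb bone, and BMMs become osteoclast precursors (preOCs) when the cytokine RANKL is added to M-CSF. Slc6a12 carries betaine and GABA into cells and Slc5a3 carries myo-inositol, both together with sodium. These solutes are osmolytes that many cells gather under hypertonic stress, when the factor NFAT5 raises both genes. Slc6a4 is the serotonin transporter of the plasma membrane, Slc18a1 loads monoamines into secretory vesicles, and Slco5a1 belongs to the organic anion transporter family. NFATc1 and AP-1 are among the transcription factors through which RANKL acts, and both bind DNA at short known sequences.

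Poly-A RNA was sequenced from 17 cultures of mouse bone marrow macrophages. Bap1flox cells carry loxP-flanked Bap1, the gene for a nuclear deubiquitinase, and no Cre. Bap1LysM cells carry the same flanked alleles with Cre recombinase in the lysozyme gene Lyz2, which is active in myeloid cells. BMM libraries received M-CSF without RANKL, and OC libraries, here called preOCs, received RANKL at 100 ng/ml for 24 h. There were 3 Bap1flox BMM libraries, 3 Bap1LysM BMM libraries, 6 Bap1flox OC libraries and 5 Bap1LysM OC libraries. The mice of the preOC experiment were 20-week-old male littermates by the study's methods, which do not describe the BMM libraries. The study calls the preOC samples biologically independent, but the labels do not tie libraries to animals, and for the BMM libraries p-values measure a spread that may in part be technical.

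Libraries held 37967542 to 61369441 counted reads, and levels are read counts scaled to library size (CPM) with TMM factors. The check of the genotype is Lyz2, which Cre interrupts, because the count of the whole Bap1 gene also covers exons that remain. Lyz2 lay at 0.142% to 0.479% of the control mean in 4 Bap1LysM OC libraries and at 0.148% and 0.169% in 2 Bap1LysM BMM libraries. In the library labelled Bap1LysM OC 1 it was 80.1% of the control mean, and in the library labelled Bap1LysM BMM 1 it was 45.4%. Bap1 itself ranged from 70.4% to 95.9% of the control mean in Bap1LysM preOCs, with both OC 1 and OC 2 at 95.9%, and from 90.0% to 97.9% in Bap1LysM BMMs. By the study's methods Cre sits on 1 of the Lyz2 alleles, so Lyz2 does not by itself settle the genotype of any library, and why its level differs between the Bap1LysM libraries was not tested. Values of the 5 genes after RANKL are given with and without the library labelled Bap1LysM OC 1. The osteoclast genes Acp5 and Ctsk averaged 2020 CPM and 1110 CPM in Bap1flox preOCs against 10.1 CPM and 4.74 CPM in Bap1flox BMMs. Sums over bulk cultures cannot tell a change in the number of cells that express a gene from a change in its RNA per cell.

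Stretches upstream of the transcription starts of 3 of the genes are shown because RANKL raised all of these genes and its factors have known short binding sequences. They come from RefSeq on GRCm38.p6, which held windows for Slc6a12, Slc5a3 and Slc6a4 but none used here for Slc18a1 and Slco5a1. All lie on the forward strand and none overlaps an annotated exon. The Slc5a3 window was shortened for this to 198 bases and leaves out the 52 bases next to its start, where the gene Mrps6 begins. Capitals mark GGAAA, the core that NFAT proteins bind, and TGANTCA, the AP-1 sequence, on either strand. RefSeq listed 5 starts for Slc6a12. The most upstream window, chr6:121342324-121342573, and the window that ends at the start used in the counting, chr6:121342826-121343075, are given with Slc5a3 at chr16:92058072-92058269 and Slc6a4 at chr11:76998347-76998596.
Slc6a12, most upstream start: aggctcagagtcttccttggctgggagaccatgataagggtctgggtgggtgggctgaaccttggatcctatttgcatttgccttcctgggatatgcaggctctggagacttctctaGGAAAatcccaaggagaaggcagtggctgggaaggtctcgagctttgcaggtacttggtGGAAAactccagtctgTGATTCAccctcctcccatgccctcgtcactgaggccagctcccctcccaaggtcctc
Slc6a12, start used in the counting: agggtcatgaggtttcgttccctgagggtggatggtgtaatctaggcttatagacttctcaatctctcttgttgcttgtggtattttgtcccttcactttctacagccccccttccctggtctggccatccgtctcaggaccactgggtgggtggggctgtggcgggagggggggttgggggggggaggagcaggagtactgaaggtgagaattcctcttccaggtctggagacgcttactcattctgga
Slc5a3: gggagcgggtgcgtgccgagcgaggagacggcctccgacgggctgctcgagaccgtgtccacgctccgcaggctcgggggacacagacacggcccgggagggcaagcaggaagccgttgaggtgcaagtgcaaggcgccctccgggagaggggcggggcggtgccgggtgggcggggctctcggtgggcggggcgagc
Slc6a4: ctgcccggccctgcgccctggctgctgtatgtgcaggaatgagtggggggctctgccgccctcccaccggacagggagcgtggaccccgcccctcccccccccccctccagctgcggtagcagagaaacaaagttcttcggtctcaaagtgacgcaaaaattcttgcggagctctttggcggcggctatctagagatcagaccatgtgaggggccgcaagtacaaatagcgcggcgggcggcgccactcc
The most upstream Slc6a12 window held 2 copies of GGAAA, 1 of them within the longer TGGAAA that also starts the site of NFAT5, and 1 TGANTCA. The other windows held none of these letters. Among 32851 mouse promoter windows of 250 bases, 55.6% held GGAAA, 18.6% held TGGAAA and 6.75% held TGANTCA, shares that do not apply directly to the shorter Slc5a3 window. None of these matches is shown to be a binding site.

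Slc6a12 lies on chromosome 6 at 121343076 to 121365775 (GRCm38, forward strand), with 3052 exon bases. In Bap1flox BMMs it was nearly silent, with 0, 4 and 4 reads, or 0, 0.0893 and 0.0802 CPM. Bap1LysM BMMs had 16, 12 and 22 reads, or 0.392, 0.266 and 0.442 CPM. After RANKL the 6 Bap1flox libraries had 14.1, 12.1, 14.7, 18.8, 17.03 and 17.7 CPM, in the order of their numbers. The library labelled Bap1LysM OC 1 had 12.2 CPM, and Bap1LysM OC 2, 4, 5 and 6 had 61.5, 102, 70.0 and 82.9 CPM. The 4 libraries with little Lyz2 stood far above every control, while Bap1LysM OC 1 fell within the control range. The mean in Bap1LysM preOCs was 4.18-fold that of Bap1flox preOCs, and 5.03-fold without the library labelled Bap1LysM OC 1. In the fit of all 11 preOC libraries, the log2 difference was 2.06 (SE 0.38), and it was 2.32 (SE 0.14) without that library.

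Slc5a3 is the other osmolyte transporter, on chromosome 16 at 92058322 to 92087473 on the forward strand, with 10913 exon bases. It was already expressed in BMMs, at 4.77, 6.65 and 7.64 CPM in Bap1flox and 3.58, 5.47 and 3.86 CPM in Bap1LysM. Bap1flox preOCs had 41.0, 50.5, 59.7, 65.5, 54.0 and 67.8 CPM. The library labelled Bap1LysM OC 1 had 35.8 CPM, below every control, and Bap1LysM OC 2, 4, 5 and 6 had 114, 110, 107 and 126 CPM, above every control. These 4 libraries agreed closely, with a mean of 115 ± 8.39 CPM (SD, n = 4). The mean over all Bap1LysM preOCs was 1.75-fold the control mean, and 2.03-fold without the library labelled Bap1LysM OC 1. The log2 difference was 0.80 (SE 0.26) with it and 1.02 (SE 0.12) without it.

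Slc6a4, the serotonin transporter, lies on chromosome 11 at 76998603 to 77032340 on the forward strand, with 4531 exon bases. BMMs held 0, 5 and 20 reads in Bap1flox and 5, 0 and 2 reads in Bap1LysM, which is 0 to 0.401 CPM over both genotypes. A library at 0 reads allows up to 3 reads by counting error alone. Bap1flox preOCs had 22.4, 24.7, 32.2, 29.4, 19.4 and 15.99 CPM. The library labelled Bap1LysM OC 1 had 14.9 CPM, below every control, and Bap1LysM OC 2, 4, 5 and 6 had 95.1, 81.1, 53.2 and 75.0 CPM. The lowest of those 4 was thus above the highest control. The mean fold over controls was 2.66, and 3.17 without the library labelled Bap1LysM OC 1, with log2 differences of 1.403 (SE 0.37) and 1.66 (SE 0.22).

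Slc18a1, the vesicular monoamine transporter, lies on chromosome 8 at 69037711 to 69089235 on the reverse strand, with 5401 exon bases. Bap1flox BMMs had 0.849, 1.09 and 1.10 CPM, and Bap1LysM BMMs had 3.82, 2.13 and 3.11 CPM. Bap1flox preOCs spread widely, at 18.7, 27.0, 26.6, 41.7, 28.6 and 21.8 CPM. The library labelled Bap1LysM OC 1 had 15.2 CPM, below every control. Bap1LysM OC 2, 4, 5 and 6 had 53.7, 48.3, 45.1 and 54.2 CPM, all above the highest control. This gene had the smallest fold over controls of the 5, at 1.58, or 1.84 without the library labelled Bap1LysM OC 1. Its log2 differences were 0.66 (SE 0.29) and 0.87 (SE 0.18).

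Slco5a1, the organic anion transporter family member, lies on chromosome 1 at 12866549 to 12992650 on the reverse strand, with 13137 exon bases. It was the least abundant of the 5 per length after RANKL and had the largest fold over controls. BMMs held 10, 4 and 3 reads in Bap1flox and 12, 13 and 13 reads in Bap1LysM, or 0.193, 0.0893 and 0.0602 CPM against 0.294, 0.288 and 0.261 CPM. Bap1flox preOCs had 0.999, 1.70, 1.55, 2.21, 1.16 and 1.83 CPM. The library labelled Bap1LysM OC 1 had 1.83 CPM, inside the control range, and Bap1LysM OC 2, 4, 5 and 6 had 8.26, 12.9, 12.3 and 10.6 CPM. The mean was 5.83-fold that of controls, and 6.99-fold without the library labelled Bap1LysM OC 1, with log2 differences of 2.53 (SE 0.40) and 2.79 (SE 0.22).

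**Figure D1:**
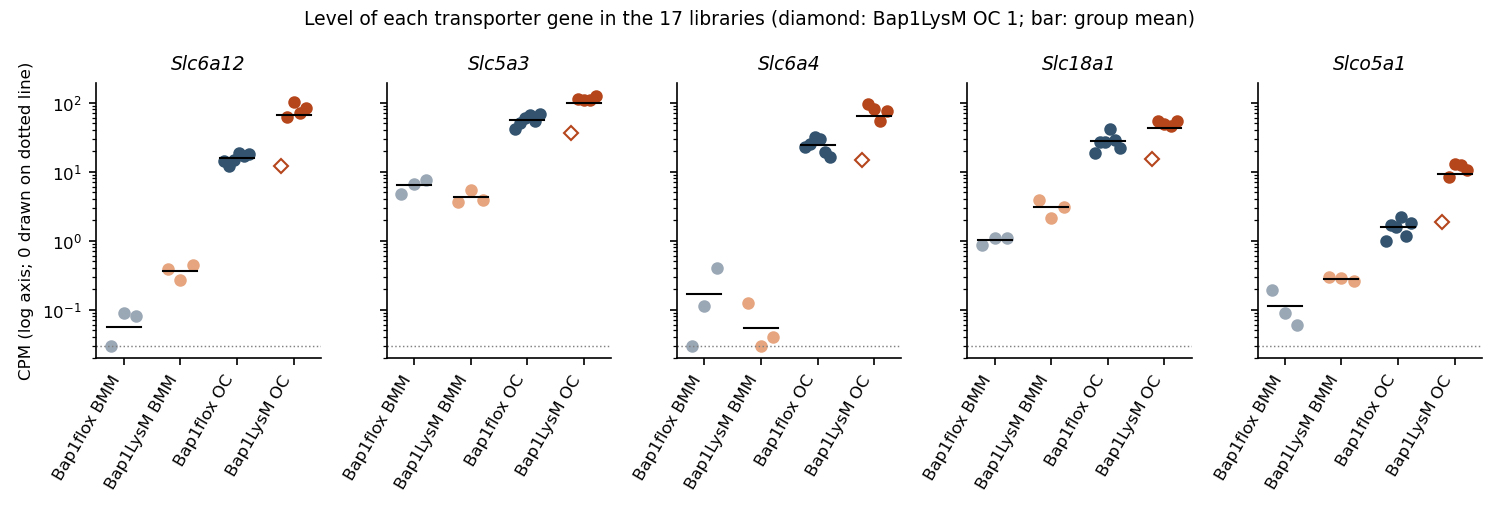
Each panel plots CPM of 1 gene on a log axis in the 17 libraries, with the group mean as a bar, libraries at 0 on the dotted line and the library labelled Bap1LysM OC 1 as an open diamond. All 5 genes are higher after RANKL, and 4 of the 5 Bap1LysM OC libraries lie above every Bap1flox OC library.

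Set against the control mean, the library labelled Bap1LysM OC 1 held 77.5% of Slc6a12, 63.5% of Slc5a3, 62.0% of Slc6a4, 55.6% of Slc18a1 and 116% of Slco5a1. The other 4 libraries ranged from 391% to 650% for Slc6a12, from 190% to 224% for Slc5a3 and from 221% to 396% for Slc6a4. They ranged from 164% to 198% for Slc18a1 and from 524% to 817% for Slco5a1. All 5 genes separated these 4 libraries from every control, which 5.96% of 12881 tested genes did in the same direction. With the library labelled Bap1LysM OC 1 included, none of the 5 did, against 3.32% of 12929 genes. This difference helped choose the genes, so nothing is read from either count. The osteoclast marker genes summed to 6090 CPM in the library labelled Bap1LysM OC 1 and to 6600 CPM in Bap1flox OC 1, each the lowest of its genotype. The other libraries reached up to 14200 CPM in Bap1flox and 15900 CPM in Bap1LysM preOCs. The part of this in the transporter levels was not tested.

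**Figure D2:**
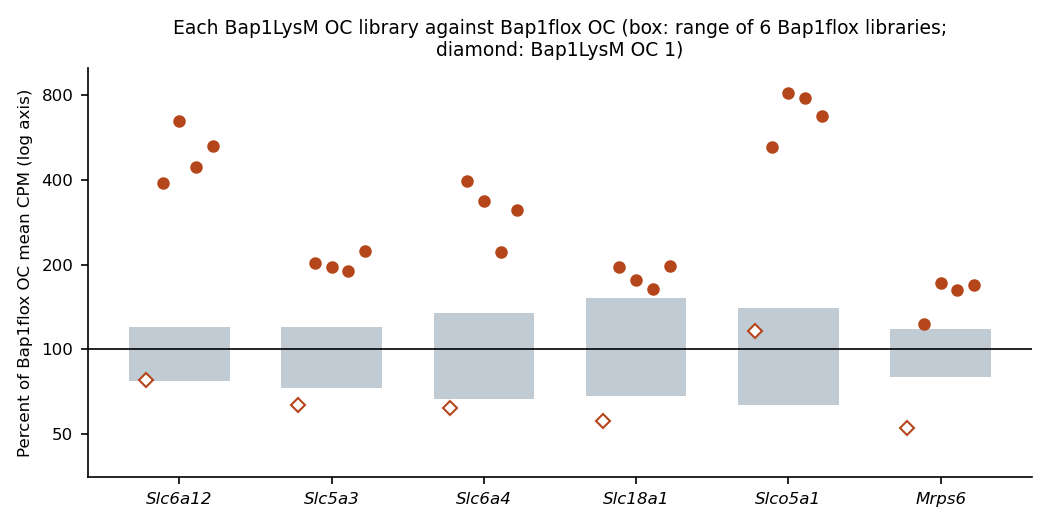
Each Bap1LysM OC library is plotted as a percent of the Bap1flox OC mean CPM on a log axis, with the range of the 6 Bap1flox OC libraries as a box and the library labelled Bap1LysM OC 1 as an open diamond. For the 5 transporter genes the 4 filled points lie above the box, from 164% for Slc18a1 to 817% for Slco5a1, and for Mrps6 they start at 123%.

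Of the 5 genes, Slc6a12, Slc6a4 and Slco5a1 passed the adjusted p of 0.05 as higher in the edgeR fit of all preOC libraries, in which 7.12% of tested genes were called higher and 15.8% in either direction. Without the library labelled Bap1LysM OC 1 all 5 passed, against 10.7% of tested genes. With the library numbers as a block 4 passed, and the block raised the number of genes called in either direction from 2043 to 4236. Since this difference chose the genes, nothing is read from these counts. The names of the deposited tables follow 1 pattern for libraries 1 to 3 and another for libraries 4 to 6. The genotypes were for that reason also compared inside each of these sets. Within numbers 4 to 6, with 3 libraries of each genotype, the mean folds were 4.77 for Slc6a12, 1.84 for Slc5a3, 3.23 for Slc6a4, 1.60 for Slc18a1 and 6.89 for Slco5a1. Within numbers 1 to 3, the single library Bap1LysM OC 2 stood at 4.52, 2.27, 3.60, 2.23 and 5.83 times the mean of the 3 controls for the same genes in that order, and the library labelled Bap1LysM OC 1 at 0.895, 0.711, 0.564, 0.631 and 1.29 times. In the fit of numbers 1 to 3 alone edgeR called 0 genes, with 2373 under an unadjusted p of 0.05.

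**Figure D3:**
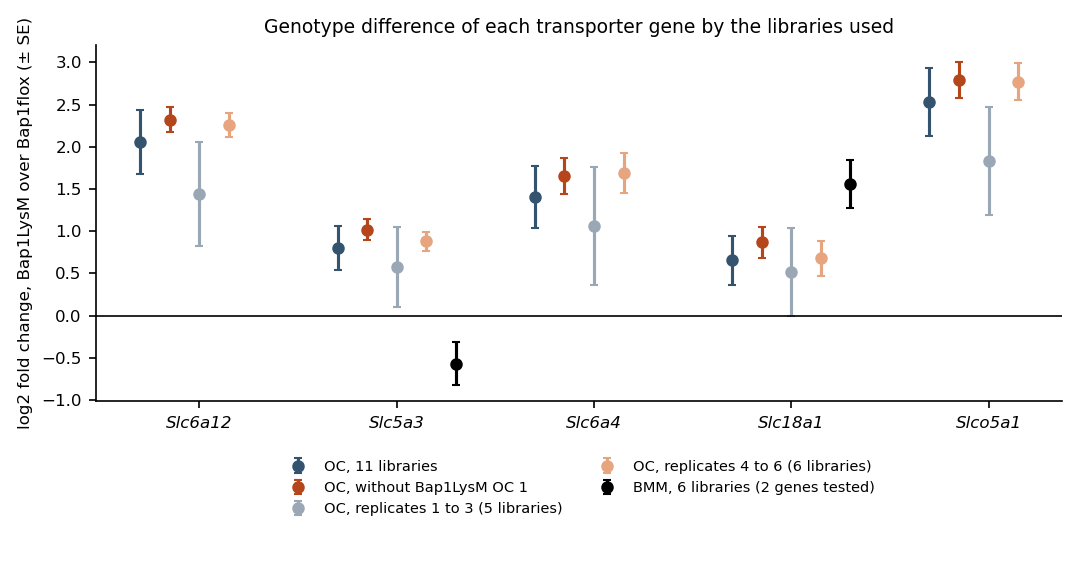
Points give the log2 fold change of Bap1LysM over Bap1flox with its SE (edgeR), for all 11 preOC libraries, without the library labelled Bap1LysM OC 1, within each library set, and in BMMs for the 2 genes that passed the low-count filter there. All preOC values are above 0, and in BMMs Slc5a3 lies below 0 and Slc18a1 above it.

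Before RANKL, 2 of the 5 genes passed the low-count filter, and Slc18a1 was called. Slc18a1 was higher in all 3 Bap1LysM BMM libraries than in any control, 2.98-fold by the means, with a log2 difference of 1.56 (SE 0.28, edgeR adjusted p = 0.0336, n = 3 and 3). In BMMs 1.31% of 13028 tested genes were called higher and 4.01% lower. Leaving out any 1 of the 6 libraries gave log2 differences of 1.36 to 1.76, with edgeR adjusted p between 0.0590 and 0.134, in fits that called 4 to 756 genes against 693. Without the library labelled Bap1LysM BMM 1 the log2 difference was 1.36 and the adjusted p was 0.0666. The replicate block kept the call of Slc18a1 (edgeR adjusted p = 0.0252) and raised the genes called in either direction from 693 to 2107.

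Slc5a3 lay the other way, at 0.677-fold, and its log2 difference of -0.57 (SE 0.25) did not pass (edgeR adjusted p = 0.210, n = 3 and 3). Its ranges overlapped, with Bap1LysM BMM 2 above Bap1flox BMM 1, but within each same-numbered pair the Bap1LysM library was lower, and with the replicate block the edgeR adjusted p was 0.0960. The other 3 genes were too low in BMMs for the filter of the fit, and without a filter their log2 differences were 2.66 for Slc6a12, 1.27 for Slco5a1 and -1.65 for Slc6a4 (edgeR adjusted p = 0.138, 0.280 and 0.567). Slc6a12 summed to 50 reads over 3 Bap1LysM BMM libraries (exact 95% Poisson interval 37.1 to 65.9) against 8 reads (3.45 to 15.8) in Bap1flox, and its lowest Bap1LysM library was above the highest control. Slco5a1 summed to 38 reads (26.9 to 52.2) against 17 (9.90 to 27.2), also without overlap. Slc6a4 summed to 7 reads (2.81 to 14.4) against 25 (16.2 to 36.9), of which 20 came from Bap1flox BMM 3. The intervals cover counting error only. The exact two-sided permutation test over these 3 and 3 libraries gave p = 0.1 for Slc6a12, Slc18a1 and Slco5a1, p = 0.2 for Slc5a3 and p = 0.7 for Slc6a4, and 0.1 is the smallest p that 3 against 3 can give. Every Bap1LysM library above every control occurred in 16.7% of tested BMM genes, and in 13.4% of 19469 genes when the filter was dropped.

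The response to RANKL could be followed within replicates 1 to 3, the only ones with both conditions. In Bap1flox the mean level rose 241-fold for Slc6a12, 155-fold for Slc6a4, 23.7-fold for Slc18a1, 12.4-fold for Slco5a1 and 7.93-fold for Slc5a3. The folds of Slc6a12, Slc6a4 and Slco5a1 rest on 8, 25 and 17 BMM reads. All 5 genes were called higher by edgeR, as were 29.4% of 13637 tested genes, and a log2 response of at least 3 was reached by 1.59% of them. This response chose the genes, so nothing is read from these calls. In the fit, the log2 responses were 7.90 (SE 0.80) for Slc6a12, 3.00 (SE 0.40) for Slc5a3, 7.26 (SE 0.94) for Slc6a4, 4.58 (SE 0.47) for Slc18a1 and 3.60 (SE 0.64) for Slco5a1.

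In Bap1LysM the log2 responses were 6.68 (SE 0.68) for Slc6a12, 4.16 (SE 0.44) for Slc5a3, 10.02 (SE 1.13) for Slc6a4, 3.55 (SE 0.46) for Slc18a1 and 4.19 (SE 0.62) for Slco5a1. All 5 were again called higher, with 21.2% of tested genes, from which nothing is read for the same reason. Only the libraries Bap1LysM OC 1 and OC 2 entered there. With OC 2 alone, whose spread is then taken from the other groups, the values were 7.43, 4.78, 10.82, 4.20 and 4.92 in the same order. The value of Slc6a4 rests on 7 reads in BMMs.

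The response in Bap1LysM less that in Bap1flox was 1.16 (SE 0.57) for Slc5a3, 2.76 (SE 1.77) for Slc6a4, 0.59 (SE 0.93) for Slco5a1, -1.22 (SE 1.16) for Slc6a12 and -1.03 (SE 0.63) for Slc18a1 on the log2 scale. Without the library labelled Bap1LysM OC 1 the values were 1.78, 3.56, 1.31, -0.47 and -0.38 in the same order. Across all genes edgeR called 0 such differences, with 1718 genes under an unadjusted p of 0.05, and voomWithQualityWeights called 0 and DESeq2 117. The Slco5a1 value changed sign without Bap1flox BMM 1 (-0.03), without Bap1LysM OC 2 (-0.92) and with voomWithQualityWeights (-0.56).

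**Figure D4:**
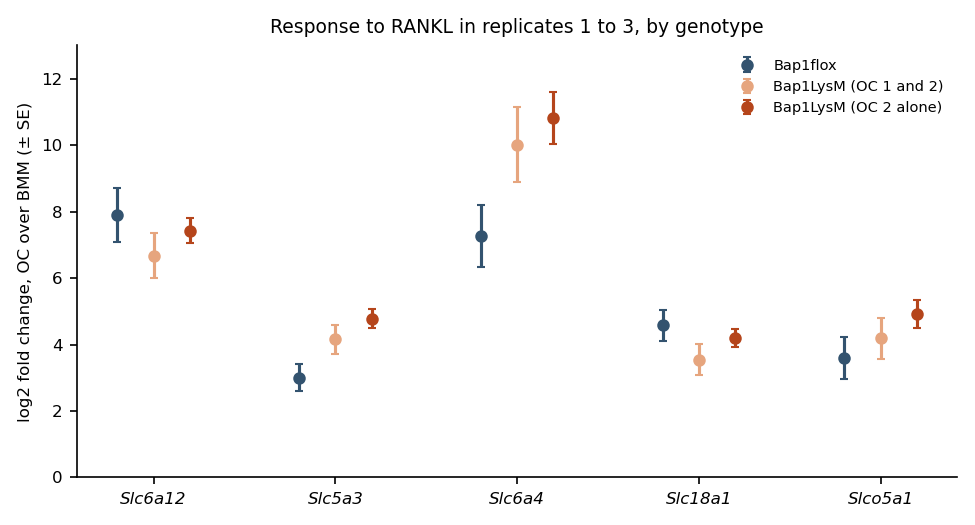
Points give the log2 fold change of OC over BMM libraries with its SE (edgeR, replicates 1 to 3) for Bap1flox, for Bap1LysM with OC 1 and OC 2, and for Bap1LysM with OC 2 alone. Every value is above 2, and Slc6a4 in Bap1LysM is the highest at 10.02, or 10.82 with OC 2 alone.

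Per kilobase of exon (RPKM), the order of the 5 genes differed between groups. Bap1flox BMMs had Slc5a3 highest at 0.582 ± 0.134 (SD, n = 3), then Slc18a1 at 0.188 ± 0.0267, with no overlap. Bap1LysM BMMs had Slc18a1 at 0.559 ± 0.158 and Slc5a3 at 0.394 ± 0.0939 (SD, n = 3), whose ranges overlapped. In Bap1flox preOCs Slc6a4, Slc5a3, Slc6a12 and Slc18a1 averaged 5.30 ± 1.34, 5.17 ± 0.918, 5.15 ± 0.831 and 5.07 ± 1.47 RPKM (SD, n = 6), and their ranges overlapped, so the order of these 4 is not resolved. Slco5a1 was far lower there, at 0.120 ± 0.0338 RPKM. In Bap1LysM preOCs the mean of Slc6a12 was 21.5, with a range of 3.99 to 33.5 over the 5 libraries, and the others were 14.1 ± 6.89 for Slc6a4, 9.05 ± 3.29 for Slc5a3, 8.02 ± 2.99 for Slc18a1 and 0.698 ± 0.341 for Slco5a1 (SD, n = 5), and the ranges of the first 4 overlapped. Without the library labelled Bap1LysM OC 1, Slc6a12 (20.2 to 33.5 RPKM) and Slc6a4 (from 11.7 RPKM) lay above Slc5a3 (9.83 to 11.6 RPKM), whose range overlapped that of Slc18a1 (from 8.34 RPKM).

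Slc5a3 shares its start region with Mrps6, a gene for a mitochondrial ribosomal protein that lies at 92058270 to 92112227 on the same strand. The annotated starts are 52 bases apart, and the genes share 159 exon bases, which is 1.46% of the exon length of Slc5a3 and 15.1% of that of Mrps6. Reads there are ambiguous and were not counted for either gene. Mrps6 had 4.25, 7.21 and 7.32 CPM in Bap1flox BMMs and 6.94, 6.58 and 7.11 CPM in Bap1LysM BMMs. It rose with RANKL as Slc5a3 did, 6.38-fold in Bap1flox, to 37.6, 40.4, 41.8, 55.5, 52.9 and 55.6 CPM. The Bap1LysM OC libraries 1, 2, 4, 5 and 6 had 24.7, 58.0, 81.4, 76.7 and 79.8 CPM. The mean was 1.36-fold the control mean, and its log2 difference of 0.43 (SE 0.25) did not pass with all libraries (edgeR adjusted p = 0.262) and was 0.64 without the library labelled Bap1LysM OC 1 (edgeR adjusted p = 0.00478).

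The number of Slc5a3 reads per Mrps6 read is unaffected by library size. It was 1.12, 0.923 and 1.04 in Bap1flox BMMs and 0.516, 0.832 and 0.542 in Bap1LysM BMMs, all below the controls (exact two-sided permutation test on log2 ratios, p = 0.1, the smallest possible with 3 and 3 libraries). In preOCs it was 1.02 to 1.43 in Bap1flox and 1.36 to 1.97 in Bap1LysM, with 1.45 in the library labelled Bap1LysM OC 1, and the ranges overlapped. In BMMs Slc5a3 lay lower relative to its neighbour in each Bap1LysM library than in any control, which is given as a description. The permutation test could not give a smaller p and left out the pairing of same-numbered libraries. How often other gene pairs separate in this way was not counted. Among single tested BMM genes, 16.7% had every Bap1LysM library above every control. Slc18a1 has a neighbour too, Atp6v1b2, whose span overlaps it on the other strand with 0 shared exon bases at 406 to 1350 CPM.

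**Figure D5:**
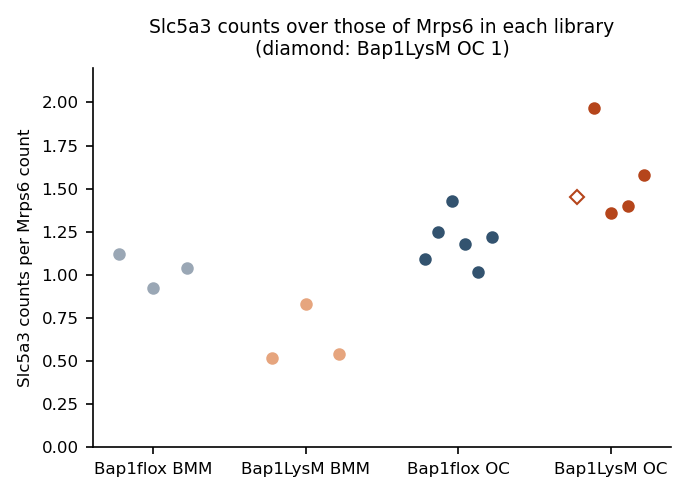
Slc5a3 counts per Mrps6 count are plotted for each library by group, with the library labelled Bap1LysM OC 1 as an open diamond. The Bap1LysM BMM libraries lie at 0.516 to 0.832, below all Bap1flox BMM libraries, and the Bap1LysM OC libraries lie at 1.36 to 1.97.

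Other genes of the same pathways were counted from lists written for each function, without the 5 genes where a list is a gene family. Over all genes tested in preOCs, 7.12% were called higher in Bap1LysM and 8.68% lower, so that 45.1% of calls were higher, or 33.3% with upper-quartile factors. Among 12 genes of osmolyte uptake and the hypertonic response, 9 were tested and 1 was called, as higher, with a median log2 difference of 0.17 against -0.01 over all genes. The gene that rose was the taurine transporter Slc6a6, from 1100 ± 123 CPM (n = 6) to 1550 ± 202 CPM (n = 5), a log2 difference of 0.50 (SE 0.10, edgeR adjusted p = 0.00697). NFAT5 itself, encoded by Nfat5, had 76.1 CPM (65.6 to 85.1) and 87.7 CPM (77.5 to 98.6) and did not pass (log2 0.20, edgeR adjusted p = 0.241). Akr1b3, the aldose reductase that makes sorbitol, was also called, as lower, once the library labelled Bap1LysM OC 1 was left out (log2 -0.26, edgeR adjusted p = 0.0347).

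Of 10 genes of myo-inositol transport and metabolism, 7 were tested and Isyna1, the enzyme that makes myo-inositol phosphate from glucose 6-phosphate, was the single one called, as higher. It had 89.1 ± 6.80 CPM in Bap1flox and 140 ± 27.4 CPM in Bap1LysM preOCs, a log2 difference of 0.64 (SE 0.12, edgeR adjusted p = 0.00403). It was also higher in Bap1LysM BMMs, by 0.80 (SE 0.09, edgeR adjusted p = 0.0127). It did not pass for RANKL in Bap1flox, at -0.07 (SE 0.10, edgeR adjusted p = 0.579). The inositol phosphate kinase Ipmk was called as well, higher by 0.31, without the library labelled Bap1LysM OC 1. Of 13 genes of betaine and choline metabolism, 7 were tested, 1 was higher and 2 lower. Slc44a2, a choline transporter, fell by 1.03 (SE 0.20, edgeR adjusted p = 0.00560) on the log2 scale in preOCs and by 0.53 (SE 0.08, edgeR adjusted p = 0.0221) in BMMs. Chka, choline kinase, was 0.42 higher and Aldh7a1, which oxidises betaine aldehyde among other aldehydes, fell by 0.37. Of 14 genes of cell volume regulation, 12 were tested, with the potassium chloride cotransporter Slc12a7 higher by 0.35 and the volume-regulated anion channel subunit Lrrc8b lower, at -0.69. The sodium potassium chloride cotransporter Slc12a2 was also called without the library labelled Bap1LysM OC 1, higher by 0.38.

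Around the monoamine transporters, 5 of 18 genes of monoamine synthesis, transport and breakdown were tested in preOCs, and 2 were called higher, of which Hdc is given here. Hdc, which makes histamine, ranged from 0.176 to 0.550 CPM in Bap1flox and from 0.835 to 1.91 CPM in Bap1LysM preOCs. It passed the low-count filter through Bap1LysM libraries alone, so nothing is read from its call. Tph1 and Ddc, which make serotonin, were at 0 CPM in all 5 Bap1LysM preOC libraries and at most 0.0440 CPM and 0.0344 CPM in Bap1flox preOCs. Of 19 receptors for serotonin, dopamine and histamine, 3 were tested and the serotonin receptor Htr2b was called, at 2.22 ± 0.846 CPM in Bap1LysM (SD, n = 5) and 0.703 ± 0.229 CPM in Bap1flox preOCs (SD, n = 6). Its place among the tested genes also came mainly from Bap1LysM libraries, so nothing is read from that call either. Without the library labelled Bap1LysM OC 1, Htr1b passed as well, at 0.94.

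Of 10 genes of GABA synthesis, transport and breakdown, 3 were tested, and the smallest adjusted p with edgeR was that of the transporter Slc6a13 (log2 0.94, SE 0.35, adjusted p = 0.0923). Without the library labelled Bap1LysM OC 1, Slc6a13 at 1.13 and Aldh5a1 at 0.75 were called higher. Of 15 genes of organic anion and prostaglandin uptake, 4 were tested and the efflux pump Abcc4 was called, with a log2 difference of -0.76 (SE 0.11, edgeR adjusted p = 0.00163). Slco4a1, the most abundant relative of Slco5a1 in preOCs, had 85.1 ± 20.4 CPM and 93.0 ± 26.8 CPM, and its log2 difference of 0.13 did not pass.

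Among 383 other Slc and Slco genes, 203 were tested in preOCs, of which 25 were higher and 19 lower, with a median log2 difference of 0.00 against -0.01 over all genes. In the Slc6a family 5 of 20 other genes were tested, and Slc6a6 and the glycine transporter Slc6a9 were higher, the latter by 1.20. In the Slc18 family Slc18b1 was lower, at -1.47. In the Slco family 3 of 14 were tested, of which the prostaglandin transporter Slco2a1 had the smallest adjusted p with edgeR (0.339). In the Slc5a family 1 of 12 was tested, Slc5a6, with an adjusted p of 0.786. These 4 genes were named after their values were seen.

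Genes whose log2 CPM followed each transporter most closely over the 17 libraries, among 13810 genes, are a description, since the points share RANKL, genotype and library. For Slc6a12 they were Strip2 (Pearson r = 0.994), Spint2 (0.992) and Slc18a1 (0.988). For Slc18a1 they were Strip2 (0.990), Mtx2 (0.988) and Slc6a12 (0.988), so these transporters were in each other's closest 3. For Slc5a3 they were Stap2 (0.993), Col15a1 (0.989) and Ckmt1 (0.988). For Slc6a4 they were Trim54 (0.990), the osteoclast receptor Oscar (0.987) and Rtn4r (0.986). For Slco5a1 they were the neurofilament gene Nefh (0.986), Gtf2a1 (0.970) and Fam177a (0.969). Over the 11 preOC libraries alone the closest gene was another in each case, Tlcd1 for Slc6a12 (0.983), Sema3a for Slc5a3 (0.982), Mad1l1 for Slc6a4 (0.961), Col15a1 for Slc18a1 (0.986) and Adig for Slco5a1 (0.984). Among the 5 genes, the closest pair over these 11 libraries was Slc6a12 and Slco5a1 (0.965) and the least alike was Slc18a1 and Slco5a1 (0.821).

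Markers of other cells, among them those that make or carry monoamines, were read beside these results. For scale, 7.12% of all genes tested in preOCs were called higher in Bap1LysM and 8.68% lower. Of 10 mast cell and basophil markers, 3 were tested in preOCs and Kit was called higher, as was Hdc with the limit given above, and the list summed to 1.89 to 4.49 CPM in Bap1flox and 4.71 to 7.85 CPM in Bap1LysM preOCs. The protease genes Tpsb2 and Cma1 were at 0 in all preOC libraries. Of 9 megakaryocyte and platelet markers, 6 were tested with 1 higher and 1 lower, and the list summed to 65.0 to 87.8 CPM in Bap1flox and 52.6 to 83.2 CPM in Bap1LysM preOCs. In BMMs the megakaryocyte and platelet list summed to 518 to 825 CPM in Bap1flox and 296 to 397 CPM in Bap1LysM. There 1 of its 6 tested genes was called lower, against 4.01% of all tested BMM genes. Of 9 neutrophil markers, 7 of the 8 tested were higher in Bap1LysM preOCs, and the list summed to 63.9 to 187 CPM in Bap1flox and 173 to 614 CPM in Bap1LysM preOCs, with 177 CPM in the library labelled Bap1LysM OC 1. Of 8 markers of B and plasma cells, 2 of the 3 tested were called higher, and the list summed to 7.08 to 15.6 CPM and 11.3 to 48.3 CPM. Of 7 dendritic cell markers, both genes tested were called higher, and the list summed to 2.98 to 5.14 CPM and 5.50 to 11.6 CPM. In each of these lists 1 called gene, Jchain and Ccr7, passed the filter through Bap1LysM libraries alone. Of 8 macrophage markers, all tested, 2 were called higher, and the sums of 3630 to 4990 CPM and 3630 to 5900 CPM overlapped. Stromal markers, of which 6 of 8 were tested with a smallest edgeR adjusted p of 0.0586 for Dcn, summed to 184 to 1930 CPM and 101 to 1210 CPM. Erythroid markers summed to at most 0.653 CPM in preOCs. The part of these cells in the transporter levels was not tested.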

How the data were processed

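The authors converted reads with bcl2fastq, aligned them to Ensembl release 76 of GRCm38 with STAR 2.5.1a and used featureCounts 1.4.6-p5 to assign reads that mapped once and to 1 gene, and the counts they deposited are whole numbers that were not normalized. Whether strand was used in counting is not given in the sources used here. Of 41388 gene identifiers, 40254 had a symbol in GENCODE M21, and 355 ribosomal RNA genes were left out.

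The 5 genes and all lists were chosen with earlier results of these data known. Genotypes were compared with the quasi-likelihood test of edgeR 4.0.16 (R 4.3.3, TMM factors), with Benjamini-Hochberg adjustment over all genes tested and calls at 0.05. A gene was tested if its CPM exceeded 1 in 4 or more of the 11 preOC libraries, in 2 or more of the 6 BMM libraries, or, for RANKL, in 2 or more of the 11 libraries numbered 1 to 3. Log2 CPM used a prior count of 2. Alternatives were RLE and upper-quartile factors, no CPM filter (a total of at least 10 reads instead), DESeq2 1.42.0, voomWithQualityWeights of limma 3.58.1, the replicate number as a block, the library set as a term, each set alone, all 17 libraries in 1 fit, and each library left out.

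Named genes were the 5 transporters, Mrps6 and overlapping genes, Lyz2 and Bap1, list genes past the adjusted p (at most 6 per list), and the 3 genes most correlated with each transporter. Nfat5, Tph1, Ddc, Slco4a1, Acp5, Ctsk, Slc6a9, Slc18b1, Slco2a1, Slc5a6, Slc6a13, Aldh5a1, Htr1b, Akr1b3, Ipmk, Slc12a2, Jchain, Ccr7 and Dcn are named in addition. The result of 1 further gene of the monoamine list is not reported here.

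Same-numbered BMM libraries deviated together from their group means (r of 0.54, 0.36 and 0.41), so the numbers were taken to pair them in the replicate block. The main BMM fit and the exact permutation tests leave this pairing out. In preOCs the r were 0.59, 0.72, 0.37, 0.64 and 0.45, and after centring each library set 0.43 and 0.37 for numbers 1 and 2 and 0.01, -0.14 and 0.04 for numbers 4 to 6. Same-numbered BMM and OC libraries of 1 genotype had r of 0.23 to 0.49 over 5 pairs. On simulated counts with 200 changed genes, edgeR recovered 81.1% of 2-fold changes in the preOC design (12744 genes, 4.28% of calls false). In the BMM design it recovered 67.4% (12833 genes, 6.21% false). DESeq2 had 15.4% and 23.3% of calls false in these designs. The changed genes lay above 2 CPM, and the simulated libraries held no pairing and no library sets. These rates do not describe genes as low as Slc6a12, Slc6a4 and Slco5a1 in BMMs. Tables and plots used Python 3.11.15, pandas 2.3.3, scipy 1.17.1 and matplotlib 3.10.9.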

Additional observations from a re-analysis of the deposited data

Results flagged for a closer look

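In the 5 Bap1LysM preOC libraries, the library labelled Bap1LysM OC 1 stood apart for 2 of the transporters by Dixon's ratio, the gap to the nearest library over the whole range. For Slc5a3 it had 35.8 CPM and the ratio was 0.789. For Slc18a1 it had 15.2 CPM and the ratio was 0.765. The usual chance rate of about 1 in 20 groups does not hold here. These values helped choose the genes, and both genes share the same libraries, so nothing is read from the flag. The same library kept 80.1% of the control level of Lyz2.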

How the results depend on the processing

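The genotype difference of each transporter in preOCs kept its direction in all 22 alternative fits, and without the library labelled Bap1LysM OC 1 all 5 passed. This difference chose the genes, so nothing is read from its direction or calls. The genes called in preOCs numbered 2043, and 7099 with voomWithQualityWeights, 4236 with the replicate block, 4349 once library set entered the fit, 0 in replicates 1 to 3 alone (edgeR, 2373 at an unadjusted p under 0.05), 4304 in replicates 4 to 6 alone, and 5024 with the set in the fit and without Bap1LysM OC 1, an alternative chosen after seeing the data. Leaving out a library gave 1071 to 3085, with 3085 without Bap1LysM OC 1, 1074 without OC 4, 1071 without OC 5 and 1333 without Bap1flox OC 5. Slc6a4 lost its call in 4 of these 11 fits. In BMMs 693 genes were called, and 2065 by DESeq2, 1772 by voomWithQualityWeights and 2107 with the block. Leaving out a library gave 4 to 756 (298, 7 and 4 without Bap1flox BMM 1, 2 and 3, 369 and 84 without Bap1LysM BMM 1 and 2), and Slc18a1 lost its call each time at log2 differences of 1.36 to 1.76 against 1.56. For RANKL in Bap1LysM, 5308 genes were called, 2937 with voomWithQualityWeights, and 3146 to 6117 with a library left out, 3146 without Bap1LysM OC 2. Without Bap1LysM OC 2, the log2 responses were 5.04 for Slc6a12, 3.05 for Slc5a3, 8.09 for Slc6a4, 2.33 for Slc18a1 and 2.69 for Slco5a1. For RANKL in Bap1flox, Slc6a4 was at 8.92 without Bap1flox BMM 3, and Slc6a12, Slc6a4 and Slco5a1 were at 7.30, 6.65 and 4.22 without Bap1flox BMM 1. In Bap1LysM, Slc6a4 was at 11.23 without BMM 1 and 9.43 without BMM 2. For the interaction 0 genes were called by edgeR, 117 by DESeq2, and 0 to 119 with a library left out, 2 without Bap1LysM OC 1 and 119 without OC 2, where Slc18a1 passed at -2.25 and Slc5a3 was at 0.05. The block left the interaction at 0.

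Values that changed sign were the interaction of Slco5a1 (0.59), at -0.56 with voomWithQualityWeights, -0.03 without Bap1flox BMM 1 and -0.92 without Bap1LysM OC 2 (-0.92 to 1.31 over the libraries left out), that of Mrps6 (-0.06), at 0.15 without Bap1flox BMM 1, 0.44 without Bap1LysM OC 1 (-0.85 to 0.44) and 0.45 without both Bap1LysM libraries numbered 1 (chosen after seeing the data), and the BMM difference of Mrps6 (0.13), at -0.056 with voomWithQualityWeights and -0.091 without Bap1flox BMM 1 (-0.091 to 0.26). The causes were not tested. Slc6a12, Slc6a4 and Slco5a1 had at most 22 reads in any BMM library, which limits their RANKL folds.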
